A study of Mus musculus with 16 samples.

Results

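Perineuronal nets are coats of extracellular matrix around the cell bodies and proximal dendrites of some neurons. The genes described here encode the main parts of that coat: the lecticans Acan, Bcan, Ncan and Vcan, the link proteins Hapln1 and Hapln4, the cross-linker Tnr, the hyaluronan synthases Has2 and Has3, and the receptor phosphatase Ptprz1. These 10 genes were taken by name from 54532 genes in the tables by a rule that uses no measured value, but the set was drawn up with earlier results of these data known. Their transcripts were measured by RNA-seq in 16 libraries of sorted mouse cortical parvalbumin (PV) interneurons. Of these, 9 came from PV-Cre;lsl-eGFP mice, the controls, whose PV cells make eGFP, and 7 from PV-Cre;lsl-eGFP-GluA2 mice, whose PV cells make eGFP fused to the AMPA receptor subunit GluA2. The 2 groups are called eGFP and eGFP-GluA2 here. All mice carried Cre driven by the PV gene and a transgene that is silent until Cre removes a stop cassette, and all were adults of 113.1 ± 11.6 days. The comparison asks, per the labels, what removing calcium-permeable AMPA receptors does to these cells. Cells were freed with pronase, which digests proteins outside cells, then fixed, sorted as positive for a nuclear dye and for green fluorescence, and lysed for polyA RNA. The values are therefore on transcripts and not on the nets.

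In a net, chains of hyaluronan are extruded by synthases in the cell membrane. Lecticans, which are proteoglycans that carry chondroitin sulfate, bind the chains through one end, and link proteins fix that bond. Tenascin-R, the product of Tnr, joins the other ends of the lecticans, and the receptor phosphatase encoded by Ptprz1 binds tenascin-R and also exists as a secreted proteoglycan. In the cortex most nets surround fast-spiking PV interneurons. Net components are made by these cells and also by glia, so markers of other cells are given beside the results.

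The libraries held 7454165 to 15462544 counts, and 26257 genes passed the filter on low counts, with all 10 net genes among them. All 12 PV interneuron markers passed this filter and together made 8140 to 14402 CPM (counts scaled by the library total) per library. Sums of counts over several genes use this scale. The CPM of Gria2 and the log2 CPM of genes were also scaled by TMM, the factors that edgeR computes between libraries. Gria2, which encodes GluA2 and so also counts the transgene, was at 587 ± 111 CPM in eGFP (SD, n = 9) and 963 ± 215 CPM in eGFP-GluA2 (SD, n = 7). In edgeR its log2 fold change was 0.71 ± 0.16 (SE; adjusted p = 1.00), and 0.69 ± 0.11 with an adjusted p of 0.012 once the background described next was a covariate. The libraries differed widely in reads from autosomal olfactory and vomeronasal receptor genes, receptors of sensory neurons of the nose, and this sum is called the background. It was low (97.5 to 182 CPM) in 5 libraries, namely eGFP 7, 8 and 9 with eGFP-GluA2 6 and 7. It was in the middle (750.1 to 1417 CPM) in 5, namely eGFP 5 and 6 with eGFP-GluA2 2, 4 and 5. It was high (2112 to 4594 CPM) in the other 6, namely eGFP 1 to 4 with eGFP-GluA2 1 and 3. These sets were formed from the data and are not groups of the study.

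In the mouse genome each link protein gene lies next to a lectican gene. On GRCm38, Hapln4 (chromosome 8, 70083457 to 70090862, plus strand) ended 2222 bp from Ncan (chromosome 8, 70093085 to 70120873, minus strand). Hapln1 (chromosome 13, 89539796 to 89611652, plus strand) lay 43659 bp from Vcan (chromosome 13, 89655312 to 89742509, minus strand). Acan (chromosome 7, 79053483 to 79115099, plus strand) and Bcan (chromosome 3, 87987531 to 88000230, minus strand) have the neighbours Hapln3, 2 bp away, and Hapln2, 21519 bp away. No protein-coding gene lay between any of these 4 pairs in GENCODE M21. The others were not part of such a pair: Tnr on chromosome 1 (159523769 to 159931729), Has2 on chromosome 15 (56665627 to 56694539), Has3 on chromosome 8 (106870242 to 106884566) and Ptprz1 on chromosome 6 (22875502 to 23052916). Values are sums over the exons of a gene. Has2, Has3, Vcan, Hapln1 and Tnr overlap a gene on the other strand, for Has2 the antisense gene Has2os and for Has3 Chtf8, and the strand setting of the counting was not found in the labels, so reads in a shared part cannot be told apart.

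The upstream regions of 3 members are shown because Acan and Tnr on one side and Vcan on the other moved in opposite directions across the libraries, as described below. Each is the 250 bases before the start of the gene in RefSeq (GRCm38.p6), 5′ to 3′ on the gene's strand, with capitals marking matches to GGGCGG or its reverse complement CCGCCC, the core of a GC box. RefSeq windows were matched for 7 of the 10 genes. The matched Hapln1 window overlaps annotated exon over all 250 bases and is not shown. Any part of these regions in the movement across libraries was not tested.
Acan, chr7:79052976-79053225, plus strand: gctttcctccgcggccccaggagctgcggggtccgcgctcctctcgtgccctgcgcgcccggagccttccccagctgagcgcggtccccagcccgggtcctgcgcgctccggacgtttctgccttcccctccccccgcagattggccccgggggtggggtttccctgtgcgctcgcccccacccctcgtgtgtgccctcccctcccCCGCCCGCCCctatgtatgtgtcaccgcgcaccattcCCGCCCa
Tnr, chr1:159523519-159523768, plus strand: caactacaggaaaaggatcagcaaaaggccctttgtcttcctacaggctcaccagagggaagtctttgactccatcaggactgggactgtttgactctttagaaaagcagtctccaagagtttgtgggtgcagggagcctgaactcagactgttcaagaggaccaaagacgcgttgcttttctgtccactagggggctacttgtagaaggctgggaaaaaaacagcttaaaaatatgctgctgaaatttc
Vcan, chr13:89742513-89742762, minus strand: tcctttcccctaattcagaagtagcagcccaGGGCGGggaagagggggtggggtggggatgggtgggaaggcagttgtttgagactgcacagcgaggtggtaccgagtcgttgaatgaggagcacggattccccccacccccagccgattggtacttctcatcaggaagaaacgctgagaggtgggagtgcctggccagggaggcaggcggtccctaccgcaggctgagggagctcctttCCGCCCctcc
The Acan window was 74.4% G and C, the Vcan window 62.4% and the Tnr window 46.8%, against a median of 52.4% over 32851 such windows. GGGCGG on either strand was found 3 times in Acan, with 2 of the matches overlapping, 2 times in Vcan and not in Tnr, and at least once in 32.7% of all windows. TATAAA (12.4% of all windows), CACGTG (6.02%) and TAATCC (6.25%), searched on both strands, were in none of the 3. A match describes these letters and is not a site.

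Among the lecticans Bcan was by far the most abundant and Vcan the least, and none of the 4 changed with the genotype past the test's threshold. Brevican transcript (Bcan) stood at 35.4, 57.9 and 77.0 TPM in eGFP (lowest, median and highest of 9 libraries) and at 43.4, 60.7 and 86.3 TPM in eGFP-GluA2 (of 7). TPM, the deposited transcript abundance, is scaled for length and so allows levels of different genes to be compared. The 2 groups overlapped over most of their range, and the log2 fold change of Bcan, eGFP-GluA2 against eGFP, was 0.07 ± 0.12 (SE; 95% interval −0.18 to 0.32). In bulk samples a level cannot be divided between the number of cells that make a transcript and its amount per cell, so fewer cells and less RNA per cell cannot be told apart. Aggrecan transcript (Acan), whose product is the lectican most closely tied to nets of PV cells, ran over 4.10, 6.45 and 8.68 TPM in eGFP and 4.83, 6.81 and 13.3 TPM in eGFP-GluA2. The 2 highest Acan values of all, 13.3 and 11.3 TPM, belonged to eGFP-GluA2 6 and 7, and the other 5 eGFP-GluA2 libraries lay inside the eGFP range. The log2 fold change of Acan was 0.17 ± 0.20 (interval −0.24 to 0.58), so a fold between 0.844 and 1.5 lay within the error. Neurocan transcript (Ncan), a lectican widespread in the brain, was at 4.49, 5.65 and 7.07 TPM in eGFP and 5.18, 5.78 and 10.2 TPM in eGFP-GluA2, again with the same 2 libraries on top in TPM. In CPM after TMM, eGFP-GluA2 5 (99.1) was above eGFP-GluA2 6 (95.4). The log2 fold change of Ncan was 0.12 ± 0.17. Versican transcript (Vcan), a lectican of many tissues and of glia, was at 0.231, 1.13 and 1.96 TPM in eGFP and 0.288, 0.602 and 2.12 TPM in eGFP-GluA2. Its groups covered nearly the same range, and its log2 fold change of −0.07 ± 0.40 had a wide interval, −0.92 to 0.78.

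**Figure D1:**
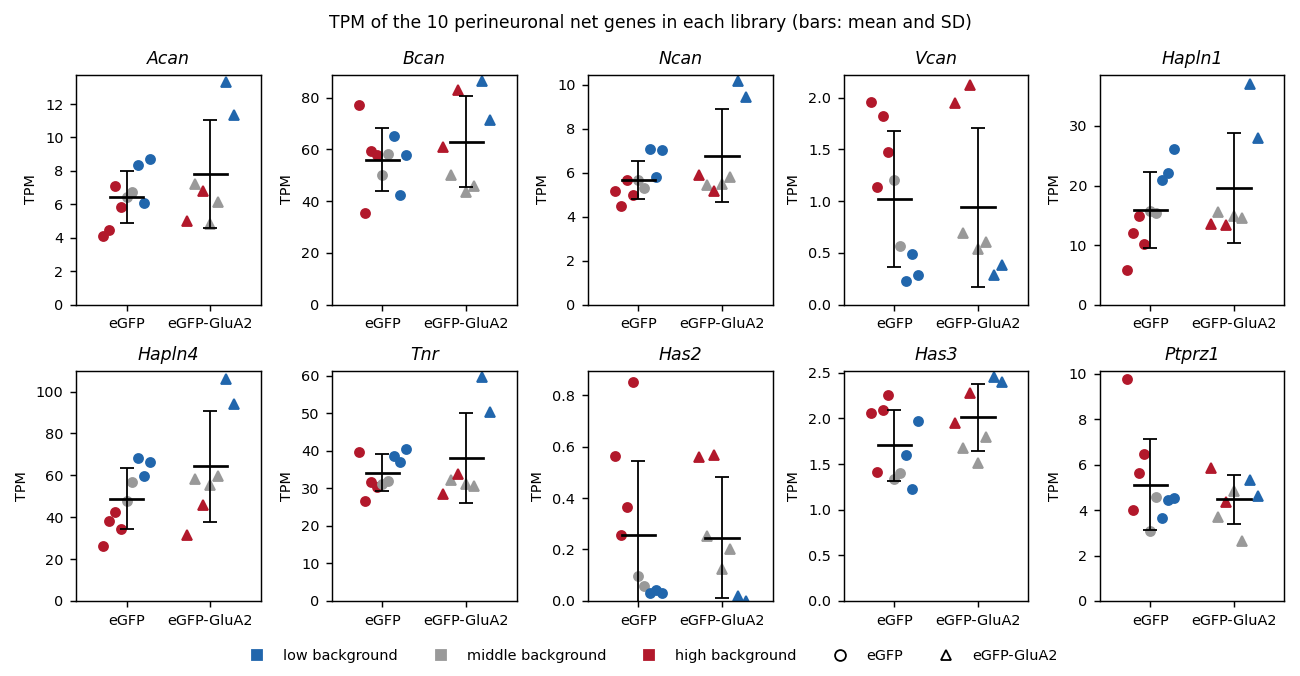
TPM of each of the 10 net genes (y axis, linear, own scale for each gene) in every library, as circles for eGFP (n = 9) and triangles for eGFP-GluA2 (n = 7), coloured by the background of the library; bars give the mean and SD, and the SD bar of Has2 is cut at 0. The groups overlap for every gene, and low-background libraries (blue) sit at the top for Hapln1 and Hapln4 and at the bottom for Vcan and Has2.

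Both link proteins were well expressed, Hapln4 more so than Hapln1, and neither passed the test for genotype. Hapln4, whose product is the brain link protein paired with brevican at perisomatic synapses and nets, was at 26.4, 47.7 and 68.1 TPM in eGFP and 31.3, 58.0 and 106 TPM in eGFP-GluA2. The libraries eGFP-GluA2 6 and 7, at 106 and 94.1 TPM, stood above every other in TPM, and the remaining 5 lay within the eGFP range. In CPM after TMM this did not hold: eGFP-GluA2 6 (431.698) was level with eGFP-GluA2 5 (431.712). The log2 fold change of Hapln4 was 0.26 ± 0.33, with an interval from −0.43 to 0.96, and ran from 0.15 to 0.41 with 1 library left out at a time. Hapln1, the link protein first known from cartilage and needed for full cortical nets, was at 5.89, 15.4 and 26.2 TPM in eGFP and 13.4, 14.8 and 37.1 TPM in eGFP-GluA2. The medians were close and the ranges overlapped. The log2 fold change of Hapln1 was 0.0018 ± 0.33 (interval −0.70 to 0.70).

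The cross-linker and the receptor phosphatase also did not pass. Tnr was at 26.6, 31.8 and 40.4 TPM in eGFP and 28.6, 32.2 and 59.6 TPM in eGFP-GluA2, with eGFP-GluA2 6 and 7 (59.6 and 50.3 TPM) above all others. In CPM after TMM, eGFP-GluA2 6 (387.1) was hardly above eGFP-GluA2 4 (386.5). The log2 fold change of Tnr was 0.08 ± 0.21. Ptprz1 was at 3.08, 4.55 and 9.78 TPM in eGFP and 2.63, 4.62 and 5.88 TPM in eGFP-GluA2. It was lower on average in eGFP-GluA2, by −0.17 ± 0.12 in log2, with the smallest p of the 10 (0.202 unadjusted in edgeR, adjusted p = 1.00).

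In TPM the hyaluronan synthases were the least abundant members besides Vcan. Has3, which makes shorter hyaluronan chains, was at 1.22, 1.6 and 2.26 TPM in eGFP and 1.51, 1.95 and 2.46 TPM in eGFP-GluA2, with a log2 fold change of 0.07 ± 0.09. Its interval, −0.11 to 0.25, was the narrowest of the 10. Has2, which makes long chains and is the main synthase of the embryo, was at 0.0319, 0.0954 and 0.850 TPM in eGFP and 0, 0.203 and 0.567 TPM in eGFP-GluA2. These values rest on few reads: 2 to 58 counts per eGFP library and 0 to 38 per eGFP-GluA2 library. The library at 0, eGFP-GluA2 7, allows up to 0.228 CPM (3 counts of its total, counting error only). The log2 fold change of Has2, −0.17 ± 0.86, had an interval from −1.98 to 1.64, so folds from 0.253 to 3.12 lay within the error.

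Across the genome 1 of 26257 genes passed an adjusted p of 0.05 (0.00381%), and 0 of the 10 net genes did, each with an adjusted p of 1.00. Without adjustment 293 genes (1.12%) had p under 0.05, and again 0 net genes did. DESeq2 called 8 genes and none of the 10. Of the net genes 7 had a log2 fold change above 0, with a median of 0.07 against −0.02 over all genes tested, and in no net gene were the groups without overlap (0.0190% of all genes). With the log2 background as a covariate 9 genes were called (0.0343%), and again 0 of the 10. That fit narrowed the standard errors of the genes that followed the background, to 0.12 for Acan (log2 fold change 0.15), 0.20 for Hapln4 (0.25), 0.16 for Hapln1 (−0.03) and 0.13 for Vcan (0.01). In the authors' deposited table adjusted p was under 0.05 for 9 of 48144 genes (0.0187%), and the net genes ran from −0.20 for Ptprz1 to 0.13 for Has3 in log2 fold change, all with an adjusted p of 1.00. The sizes there are not on the scale used here. Has2 stood at 0.0056 ± 0.11 in that table and at −0.18 ± 0.84 in the DESeq2 fit made here (SE). For Hapln4 the 2 values were 0.12 ± 0.15 and 0.25 ± 0.31. A p that misses the threshold does not show equal levels: the intervals give the sizes that these libraries leave within error.

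**Figure D2:**
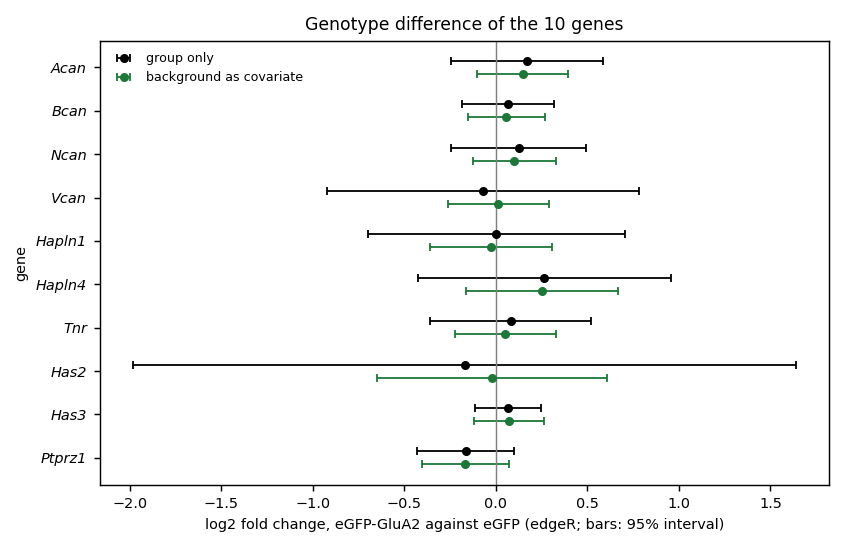
Log2 fold change of each net gene, eGFP-GluA2 against eGFP, from edgeR (x axis; y axis: gene), as points with 95% intervals, from the comparison of groups alone (black) and with the log2 background as a covariate (green). Every interval crosses 0; the interval of Has2 runs from −1.98 to 1.64 with groups alone and is the widest.

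Within libraries of like background the genotype difference in log2 CPM changed sign between the sets for all net genes but Hapln4 (higher in each set) and Ptprz1 (lower in each). In the 5 low-background libraries (3 eGFP, 2 eGFP-GluA2) 7 of the 10 had log2 CPM values without overlap between the groups, against 24.5% of all genes. Of these, Acan (0.24 higher in eGFP-GluA2), Has3 (0.21), Hapln4 (0.19), Ncan (0.14), Bcan (0.13) and Tnr (0.11) were higher, and Has2, at 2 to 3 counts in eGFP and 0 to 1 in eGFP-GluA2, was lower. In the 5 middle libraries (2 eGFP, 3 eGFP-GluA2) 1 of the 10 was without overlap, Bcan, now 0.16 lower in eGFP-GluA2 (18.1% of all genes). In the 6 high libraries (4 eGFP, 2 eGFP-GluA2) 1 of the 10 was without overlap, Has3, 0.12 lower (11.1% of all genes). These separations of Bcan and Has3 rest on the TMM scaling. As CPM per kb of exon by library totals alone, Bcan in the middle set was at 53.9 and 56.1 in eGFP and 46.0 to 54.0 in eGFP-GluA2. Has3 in the high set was at 2.20 to 3.39 in eGFP and 2.75 and 2.94 in eGFP-GluA2, so both overlapped. A fit in edgeR on the low-background libraries alone, added after the data were seen, called 154 of 19457 genes (0.791%) and 0 of the 9 net genes it could test. There 5 net genes had an unadjusted p under 0.05, as did 11.7% of all genes: Hapln4 (log2 fold change 0.22 ± 0.06, adjusted p = 0.104), Acan (0.27 ± 0.08, adjusted p = 0.141), Tnr, Ncan and Bcan (0.14 to 0.17, adjusted p 0.343 to 0.390). With 2 libraries of one group, both numbered last in it, this set is small. A test of whether the genotype difference depended on the background called 0 of 26257 genes in edgeR, with adjusted p of 1.00 for each net gene, and its unadjusted p for the 10 ran from 0.185 (Has3) to 0.987 (Ncan).

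By mean TPM over the 9 eGFP libraries the order of levels was Bcan (55.9 ± 12.2, SD), Hapln4 (48.9 ± 14.6), Tnr (34.2 ± 4.88), Hapln1 (15.9 ± 6.34), Acan (6.42 ± 1.55), Ncan (5.68 ± 0.868), Ptprz1 (5.13 ± 2.01), Has3 (1.71 ± 0.388), Vcan (1.02 ± 0.655) and Has2 (0.255 ± 0.289). Bcan and Hapln4 could not be ordered: Bcan was the higher in 7 of the 16 libraries. Acan was above Ncan in 12, Ncan above Ptprz1 in 14 and Hapln4 above Tnr in 15, so these neighbours also exchanged places. In eGFP 1 Ptprz1, at 9.78 TPM, was above Hapln1 (5.89), Ncan (5.17) and Acan (4.10). The other 5 steps, Tnr over Hapln1, Hapln1 over Acan, Ptprz1 over Has3, Has3 over Vcan and Vcan over Has2, held in 16 of 16. In eGFP-GluA2 the means were 62.9 ± 17.6 TPM for Bcan, 64.3 ± 26.4 for Hapln4, 38.1 ± 12 for Tnr, 19.6 ± 9.27 for Hapln1 and 7.81 ± 3.25 for Acan.

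Along the background of the libraries the net genes split into 3 kinds. Per unit of log2 background, in a model with the genotype, 6 of the 10 fell and 2 rose, and 2 were not called. Over all genes 31.5% fell and 44.0% rose (75.5% in either direction), and the median slope was 0.04. The fallers were Hapln1 (−0.28 ± 0.04, SE), Hapln4 (−0.25 ± 0.05), Tnr (−0.16 ± 0.03), Acan (−0.15 ± 0.03), Ncan (−0.13 ± 0.03) and Bcan (−0.07 ± 0.03). Their adjusted p values in edgeR ran from 1.2e-06 (Hapln1) to 0.00019 (Tnr), and that of Bcan was 0.0189. The call on Bcan ended on TPM (slope −0.02, adjusted p = 0.691 by limma) and without any one of eGFP 2, 3 or 4 or eGFP-GluA2 2, 4 or 5, with slopes of −0.08 to −0.03 over all libraries left out. The risers were Has2 (0.92 ± 0.08) and Vcan (0.39 ± 0.03), with adjusted p of 1.2e-10 and 9.2e-11. Has3 (0.01 ± 0.02) and Ptprz1 (−0.0065 ± 0.028) had adjusted p of 0.668 and 0.843. Scaling by total counts alone moved the median slope of all genes to 0.15, with 16312 genes higher and 3388 lower (62.1% and 12.9%). Relative to that median all members but Vcan and Has2 were again below 0, but in absolute terms Bcan then had a slope of 0.04, Ncan was not called and Has3 and Ptprz1 were called higher.

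**Figure D3:**
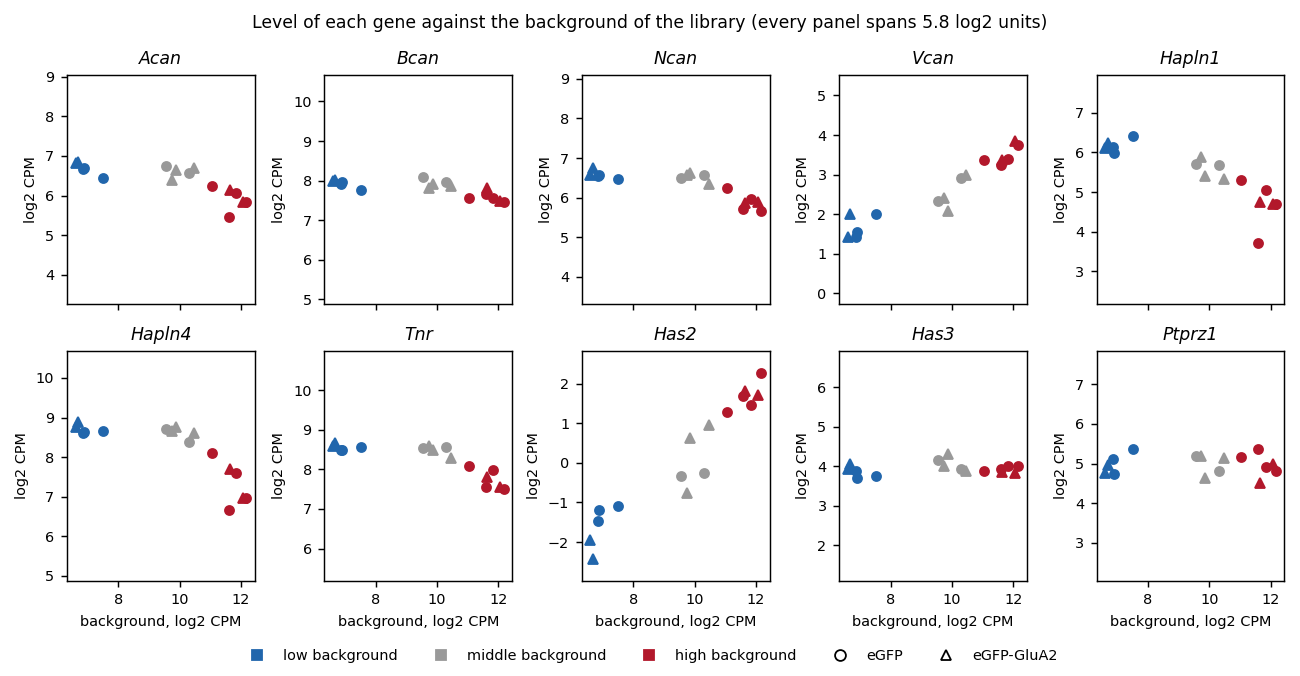
Log2 CPM of each net gene (y axis; every panel spans the same number of log2 units) against the log2 CPM of olfactory and vomeronasal receptor genes (x axis), 1 point per library, circles for eGFP and triangles for eGFP-GluA2. Hapln1 and Hapln4 fall from left to right, Vcan and Has2 rise, and Has3 and Ptprz1 have slopes of 0.01 and −0.0065; the lowest Has2 points rest on 0 to 3 counts and are set by the prior count of 2.

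Among the fallers the link proteins were the clearest. Hapln1 averaged 26.9 ± 6.38 TPM in the 5 low-background libraries (SD), 15.2 ± 0.501 in the 5 middle ones and 11.6 ± 3.24 in the 6 high ones. Hapln4 averaged 78.8 ± 20.1, 55.5 ± 4.70 and 36.5 ± 7.21 TPM in the same sets. For both genes every low-background library was above every high-background one in TPM and in log2 CPM, where Acan, Ncan and Tnr also separated (26.0% of all genes did so in log2 CPM). For Acan and Ncan this separation rests on the TMM scaling of log2 CPM. Scaled by library totals alone, as CPM per kb of exon, Acan was at 9.43 to 13.9 in low and 7.86 to 11.6 in high libraries. On that scale Ncan was at 9.93 to 13.1 and 9.62 to 10.9, so both overlapped. In TPM Acan, Ncan and Tnr overlapped: Acan averaged 9.55 ± 2.81 against 5.56 ± 1.24, Ncan 7.90 ± 1.84 against 5.23 ± 0.502 and Tnr 45.2 ± 9.59 against 31.8 ± 4.64. Bcan overlapped in both scales, at 64.6 ± 16.2 TPM in the low and 62.2 ± 16.7 TPM in the high libraries. Within the 6 high-background libraries alone, Hapln4 was the 1 net gene whose slope was called (−1.01, adjusted p = 0.0473 in edgeR, with 1683 of 35448 genes, 4.75%, called lower).

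Vcan and Has2 went the other way. Vcan averaged 0.336 ± 0.103 TPM in the low, 0.717 ± 0.275 in the middle and 1.74 ± 0.371 in the high libraries, a ratio of 5.19 between high and low. Has2 averaged 0.0252 ± 0.0165, 0.147 ± 0.0797 and 0.526 ± 0.203 TPM, with 9 counts in all over the 5 low-background libraries and 217 over the 6 high-background ones. For both, every low-background library was below every high-background one, as held for 37.9% of all genes in log2 CPM. Has3 (1.93 ± 0.525 TPM low, 2.01 ± 0.317 high) and Ptprz1 (4.52 ± 0.599 low, 6.02 ± 2.07 high) overlapped.

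Set against the receptor genes per length of exon, the members differed by orders of magnitude. Has2 had 1.18 to 1.92 times the read density of the receptor genes in the 6 high-background libraries, 0.541 to 1.74 times in the middle ones and 0 to 2.51 times in the low ones. Has2 reads were thus near the density of the receptor genes at each background. Vcan was at 1.38 to 1.89 times in the high, 1.53 to 2.22 times in the middle and 6.93 to 13.2 times in the low libraries. Ptprz1 (3.42 to 7.41 times) and Has3 (4.06 to 6.15 times) were a few times above in the high libraries and at least 54.8 times above in the low ones. Acan was at 13.3 to 27.3 times, Hapln1 at 5.64 to 18.0, Ncan at 12.4 to 28.6, Tnr at 24.9 to 56.8, Bcan at 76.2 to 128 and Hapln4 at 56.2 to 188 times in the high libraries. For scale Pvalb, which encodes parvalbumin, was at 211 to 640 times there. This ratio was chosen after the data were seen and carries no test.

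**Figure D4:**
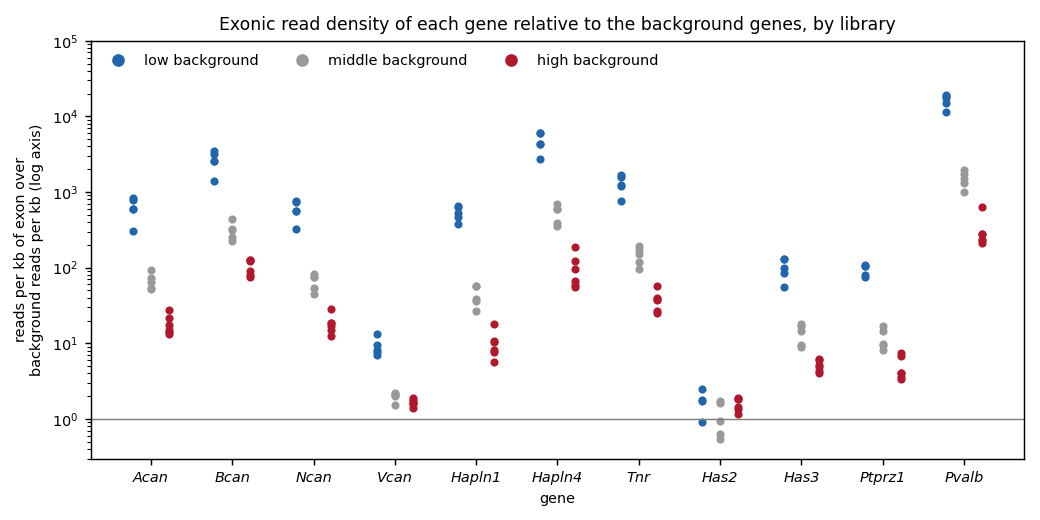
Reads per kb of exon of each net gene and of Pvalb, divided by the reads per kb of the olfactory and vomeronasal receptor genes of the same library (y axis, log scale), 1 point per library by background (x axis: gene); the line marks a ratio of 1. Has2 lies near the line in all sets (its library with 0 counts cannot be drawn), Vcan lies at 1.38 to 1.89 in the high-background libraries, and Bcan and Hapln4 lie 56.2-fold or more above the line in every library.

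Markers of several cell types moved with the background, beside 44.0% of all genes that rose and 31.5% that fell. All 12 PV interneuron markers fell with it, as the 6 net genes did; the most abundant, Gad1, which encodes an enzyme that makes GABA, went from 1003 ± 162 to 486 ± 106 TPM between low and high libraries. Of 9 markers of oligodendrocyte precursors, cells known to make Vcan, Bcan and Ptprz1, 8 rose and 1 fell, with a summed level of 12.4 to 16.9 CPM in the low and 54.6 to 83.3 CPM in the high libraries. Their most abundant were Lhfpl3 (2.43 ± 0.426 TPM low, 1.55 ± 0.291 high) and Pdgfra (0.380 ± 0.114 low, 2.15 ± 0.985 high). Of 9 endothelial and mural markers 8 rose (10.3 to 19.4 CPM low, 57.1 to 111 CPM high), and all 3 tested fibroblast markers rose (0.841 to 1.81 CPM low, 24.7 to 54.3 CPM high). Of 9 astrocyte markers 6 rose and 2 fell (197 to 290 CPM low, 150.1 to 246 CPM high), and of 8 microglial markers 5 rose. The lists of oligodendrocytes (2 of 8 rose, 3 fell), excitatory neurons (5 of 8 rose, 3 fell) and other interneurons (3 of 9 rose, 4 fell) went both ways, and 0 of 3 tested erythrocyte markers was called. None of these markers was at 0 in every library. The part of other cells in the levels of Vcan, Has2, Bcan and Ptprz1 was not tested. Between genotypes 0 of these markers passed the test; adding the precursor markers as a covariate left 0 net genes called, with a log2 fold change of −0.12 ± 0.15 for Vcan.

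The make-up of the lectican transcript pool differed between genotypes by less than the spread between libraries. Bcan made 80.6% ± 3.07 of summed lectican TPM in eGFP (SD, n = 9) and 80.1% ± 2.88 in eGFP-GluA2 (SD, n = 7). Acan made 9.47% ± 2.05 and 9.86% ± 2.29, Ncan 8.42% ± 1.5 and 8.78% ± 1.72, and Vcan 1.51% ± 0.903 and 1.23% ± 0.882. These differences, at most 0.479 percentage points in size, were under the SD of either group. With 1 library left out at a time they ran from −1.36 (without eGFP-GluA2 3) to 0.354 (without eGFP 1) for Bcan, −0.219 (without eGFP 1) to 0.892 (without eGFP-GluA2 1) for Acan, 0.049 to 0.941 for Ncan and −0.511 to −0.112 for Vcan, all smaller than the SDs above. With background the pool shifted: Acan made 11.5% ± 0.782 in low and 7.71% ± 1.95 in high libraries, and Vcan 0.449% ± 0.258 and 2.36% ± 0.212, with no overlap between the low and high sets for either gene. Hapln1 made 24.0% ± 3.08 of the 2 link proteins in eGFP and 23.4% ± 3.66 in eGFP-GluA2. By background it made 25.6% ± 2.30 in low, 21.6% ± 1.93 in middle and 23.9% ± 4.01 in high libraries. The ratio of the link proteins thus moved less than either level, and not steadily with the background. Has2 made 10.7% ± 9.39 of Has2 plus Has3 in eGFP and 10.6% ± 8.63 in eGFP-GluA2, but 1.54% ± 1.28 in low and 20.2% ± 4.66 in high libraries.

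**Figure D5:**
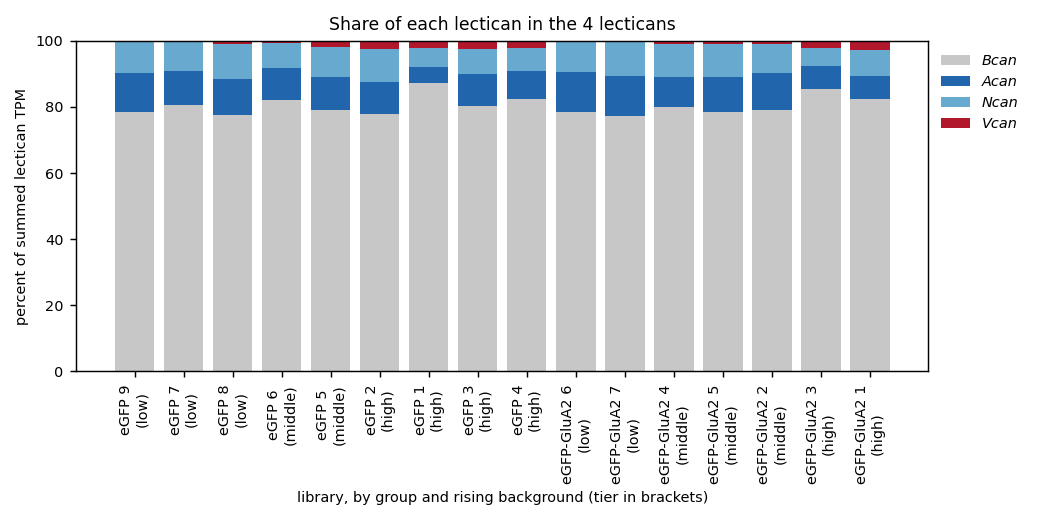
Percent of the summed TPM of Acan, Bcan, Ncan and Vcan held by each of them (y axis, from 0 to 100), 1 bar per library (x axis), ordered within each genotype by rising background. Bcan holds 77.1% to 87.3% in every library, and the Vcan part at the top is wider in the high-background libraries (2.11% to 2.65%) than in the low-background ones (0.261% to 0.896%).

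Other genes that build, bind or cut the net were taken from 3 lists, and 0 of them passed the genotype test (0.00381% of all genes did). Of 20 further matrix components and receptors 14 were above 0, with a median log2 fold change of 0.10. The 2 of smallest p, Rtn4r and Rtn4rl2, encode Nogo receptor family proteins and had log2 fold changes of 0.42 ± 0.21 (unadjusted p = 0.068 in edgeR) and 0.42 ± 0.24 (0.090). The 2 most abundant, Ptprs, a receptor for chondroitin sulfate, and Cspg5 (neuroglycan C), were at 185 ± 23.0 and 30.4 ± 6.48 TPM in eGFP and 208 ± 59.6 and 36.2 ± 13.3 TPM in eGFP-GluA2. The neighbours of the lecticans, Hapln2 (0.529 ± 0.270 TPM in eGFP) and Hapln3 (1.21 ± 0.367 TPM), were far below Hapln1 and Hapln4 and had slopes on the background of 0.31 and 0.13, both higher. Of the 20, 9 rose and 7 fell with the background, beside 44.0% and 31.5% of all genes.

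Of 25 genes of chondroitin sulfate synthesis and sulfation 17 were above 0, with a median of 0.04, and 1 had an unadjusted p under 0.05, as did 1.12% of all genes. That gene was Chsy3, a chondroitin synthase, with a log2 fold change of 0.25 ± 0.11 (adjusted p = 1.00 in edgeR). Next came Chpf2, a polymerizing factor, with 0.18 ± 0.13. The 2 most abundant, B3gat3 and Fam20b, which complete and phosphorylate the linker between protein and sugar chain, fell with the background by 0.24 and 0.20 per log2 unit. In all 14 of the 25 fell with it and 10 rose, beside 31.5% and 44.0% of all genes. Of 27 enzymes that cut the net and their inhibitors, 26 were tested and 12 were above 0, with a median of −0.01. The smallest p belonged to Mmp17, a membrane-bound metalloproteinase (0.36 ± 0.15, unadjusted p = 0.028), then Mmp15 (0.24 ± 0.15). Cemip, a hyaluronan-degrading protein, and Mmp16 were the most abundant, at 43.7 ± 5.48 and 19 ± 3.43 TPM in eGFP and 45.4 ± 10.03 and 21.8 ± 6.86 TPM in eGFP-GluA2. Of the 26, 10 rose and 10 fell with the background, beside the same 44.0% and 31.5%. Mmp3 was not tested, for its low counts.

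The genes most like 3 net genes were sought among 14432 genes, over 16 libraries, after removing the mean of each genotype within each background set. These points share their libraries and depth, and the values are descriptions with no test. Removing the means leaves fewer free values than 16, and where a genotype has 2 libraries in a set their deviations mirror each other. Each r given first is also the highest of 14432, so high values are easily reached. Acan was most like Scn4b (Pearson r = 0.972), a sodium channel subunit, then Lancl1, Slc45a4, Rpl35 and Chga (0.930 to 0.937). Hapln4 was most like Endod1 (0.988), then Map1a, Ntm, Psmc5 and Mgat3 (0.983 to 0.986). Hapln1 was most like Rrm2b (0.953), then Slc25a46, Abca5, Glrb and Zfp748 (0.937 to 0.946). Of the other members, Hapln4 was the nearest to Acan (r = 0.862, rank 120 of 14432), Tnr the nearest to Hapln4 (0.875, rank 1024) and Hapln4 the nearest to Hapln1 (0.751, rank 1245). The correlation of Acan with Bcan was 0.228 and with Ptprz1 −0.41.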

How the data were processed

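PolyA RNA of 16 libraries (9 eGFP, 7 eGFP-GluA2) was sequenced as 150-bp read pairs. Per the series' design text and the submitters' processing notes, the authors used bcbio-nextgen 1.2.3, STAR, GRCm38, Sailfish and DESeq2. The deposited counts are whole numbers of reads per gene, not normalized, and whether Sailfish or another counter made that table is not stated. The authors also deposited TPM values, which are scaled for length. Another deposited table holds a signal, namely counts divided by a size factor, with the authors' log2 fold changes, a test statistic (a score) and p-values. All of that signal was a whole multiple of 1 read per library (100% within 0.001), which gave 10477517 to 17382059 recovered reads per library, used as an alternative.

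Of 54532 identifiers 54409 were named from GENCODE M21 and 123 were not. edgeR 4.0.16 was fitted on the deposited counts (TMM, filterByExpr, robust quasi-likelihood F test, Benjamini-Hochberg over 26257 genes, threshold 0.05), with the group alone. The slope was tested in the model group plus log2 background. The background is the CPM of 1953 receptor genes, with cuts at 500 and 1500 CPM. Standard errors come from the F statistic, and log2 CPM of genes is scaled by TMM with a prior count of 2. The 28275 removed genes held the remainder of the counts, of which 99.2% were in tested genes. Alternatives used DESeq2 1.42.0, limma 3.58.1 and sva 3.50.0 in R 4.3.3. The net genes, lists and tests were chosen with earlier results of these data known. Named genes are the 10 members, Gria2 and Pvalb, Hapln2 and Hapln3, the 2 of smallest p and the 2 most abundant of each list, the 2 most abundant markers of a cell type, and the 5 genes most like Acan, Hapln1 or Hapln4 among genes averaging 2 or more in log2 CPM. Some of what this rule names is not reported here. The edgeR fit of group plus log2 background was tried on simulated counts, in which far fewer genes had a slope than were called here. The fit with the group alone was not tried on them. Replicates are biological per the labels, but no animal, sex or batch is given per library, and p-values measure the spread between these libraries. Promoter windows are from RefSeq.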

Additional observations from a re-analysis of the deposited data

Results flagged for a closer look

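Of 32 sets of values examined (each net gene or share in each genotype), 3 held a library that stood apart from its group, and all 3 were in eGFP replicate 1. At its nominal rate such a check marks about 1 set in 20 by chance, and the 2 shares come from the same sum. Ptprz1 was at 9.78 TPM in eGFP replicate 1, with the next eGFP library at 6.47. Acan made 4.64% of the lectican TPM there, with the next lowest eGFP library at 8.37%. Bcan made 87.3% of it there, with the next highest at 82.4%. The same library had a PV marker mean of 8.24 in log2 CPM, the lowest of the 16, and a background of 3092 CPM. Their part in the 3 values was not tested. Without eGFP replicate 1 the log2 fold changes of Ptprz1, Acan and Bcan were −0.12, 0.09 and 0.05, and none was called.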

How the results depend on the processing

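Under all alternatives run, 0 of the 10 net genes was called for genotype, and a threshold of 0.1 also called none. One of them, the exact permutation described below, could hardly call any gene. Acan, Bcan, Ncan, Hapln4 and Has3 stayed above 0 and Ptprz1 below 0 in every setting that could test them. Sign changes were found for 4 genes, none of them called. For Vcan the log2 fold change was 0.013 with the background as a covariate, 0.054 with the background set as a block, 0.046 with 1 surrogate variable, 0.14 without the high-background libraries and 0.082 in the low-background libraries alone. Hapln1 was at −0.0087 in DESeq2, −0.0068 with RLE scaling, −0.00064 with no filter on low counts, −0.025 with the covariate, −0.078 with the block, −0.039 with the surrogate variable and −0.15 without the high-background libraries. Tnr was at −0.036 with the background set as a block. Has2 was at 0.086 with that block, 0.093 with the surrogate variable, 0.0059 by limma on log2(TPM + 0.5) with no filter, 0.051 on recovered reads and 0.22 on recovered reads with the covariate. Leaving out 1 library at a time gave −0.36 to 0.10 for Vcan, −0.14 to 0.15 for Hapln1 and −0.54 to 0.22 for Has2. The cause of these changes was not tested.

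The count of genes called over the whole table was 1 in the comparison of groups and 1 without any 1 library. It was 8 in DESeq2, 2 with upper-quartile scaling, 2 with total counts only, 9 with the background covariate, 11 with the background set as a block, 9 with the surrogate variable and 8 with the precursor markers. It was 0 by exact permutation of log2 CPM over all assignments of the libraries (473 genes at an unadjusted p under 0.05), 2 by limma on log2(TPM + 0.5) and likewise with pseudocounts of 0.1 and 1 and with no filter, 3 on recovered reads, 3 without the high-background libraries, 5 on recovered reads with the covariate and 154 in the low-background libraries alone.

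With the replicate number as a block 8 of 25633 genes were called (0.0312%) and 0 net genes; Acan (0.22 ± 0.08, unadjusted p = 0.0129) and Hapln4 (0.42 ± 0.15, 0.0132) then had adjusted p of 0.515 in edgeR, while 8.72% of all genes had an unadjusted p under 0.05. Without the block 1.12% did. The correlation of the deviations of same-numbered libraries ran from −0.028 to 0.904 and was over 0.1 for 6 of 7 numbers, and 2 of 7 were closest to their own number. They were not treated as pairs because number 4 was under 0.1. The block and the background overlap: the low-background libraries are the last numbers of each group.

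Slopes on the background kept their sign in all settings for Acan, Ncan, Vcan, Hapln1, Hapln4, Tnr and Has2. The slope of Bcan was 0.039 with total counts only. It was not called on TPM (−0.02) or without any one of eGFP replicates 2, 3 or 4 or eGFP-GluA2 replicates 2, 4 or 5, with values of −0.08 to −0.03 over all libraries left out. The slope of Ptprz1, not called, was 0.012 with RLE scaling, 0.10 with total counts only and 0.055 on TPM, and −0.026 to 0.026 with 1 library left out. That of Has3 was −0.00019 to 0.047 with 1 left out. Within the 6 high-background libraries 1882 genes had a called slope, against 19818 in all libraries. There the Hapln1 share differed by 3.77 percentage points between genotypes, at 22.7% ± 3.25 in eGFP (SD, n = 4) and 26.4% ± 5.46 in eGFP-GluA2 (n = 2). The groups overlapped, and the 2 eGFP-GluA2 libraries were at 22.6% and 30.3%. Has2 rests on the fewest counts, at most 3 in each low-background library, and it could not be tested without the high-background libraries.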
